A study of Homo sapiens with 24 samples.

Results

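The 35 genes described here encode aminoacyl-tRNA synthetases, the enzymes that attach each amino acid to its transfer RNA. Of these, 19 encode enzymes of the cytosol and 16 encode enzymes of the mitochondrion, out of 18132 genes with a probe set that names them alone. Each gene was read from its brightest such probe set by mean over all 24 arrays. A choice of probe set had to be made for 27 of the 35 genes, and 8 had only 1. The genes were listed by name, with earlier results of these data known, and all 35 passed the filter on dim genes in both lines.

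Transcripts were measured on Affymetrix PrimeView arrays, which read mostly the 3' part of a transcript, in Caki-1 and 769-P, 2 established human lines of renal cell carcinoma. Cells of each line had received the vehicle DMSO or 1 µM dasatinib, a drug that blocks ABL and the kinases of the SRC family, for 6, 12 or 24 h, which gave 8 groups of 3 arrays. No other agent, genotype or allele is named for any group. Arrays of a group are labelled as biological replicates, but not as separate cultures, so p-values measure only the spread between these arrays. The DMSO arrays carry no time, so the same 3 of a line were its control at 6, 12 and 24 h, and time under drug and time in culture cannot be told apart. The medians of the arrays ran from 6.008 to 6.084 (log2). All 6 measured markers of renal epithelium and renal carcinoma passed the filter in both lines, VIM and KRT18 among them. Of 4 leukocyte markers 2 passed in Caki-1 (CD3E at 5.25 to 5.75 and CD14 at 5.12 to 6.41) and CD3E alone in 769-P, while PTPRC stayed at or under 3.58 and 3.97. Of 3 endothelial markers PECAM1 and VWF passed in each line, at 5.21 to 6.51 over all arrays, and CDH5 did not. Of 3 fibroblast markers DCN (4.94 to 7.03) and LUM (5.07 to 7.89) passed in Caki-1 and none in 769-P. The part of these markers in any result was not tested. Precision rests on the number of arrays, which was 3 in each group of every change given. Levels are log2 signals, changes are differences of mean log2 signal ± SE, and "rose", "fell" and "called" mean an adjusted p under 0.05 in limma over all genes tested.

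A cell runs a pair of translation systems. The cytosolic synthetases charge the transfer RNAs that read messages from the nucleus, and the mitochondrial ones, also encoded in the nucleus and then imported, charge those that read the messages of the mitochondrial genome, which encode subunits of the respiratory chain. For most amino acids a separate gene serves each compartment. GARS1 and KARS1 supply both compartments and stand in the cytosolic list here. EPRS1 joins the glutamate and the proline enzyme in 1 protein, phenylalanyl-tRNA synthetase of the cytosol is built from the subunits FARSA and FARSB, and mitochondria obtain their glutamine transfer RNA by charging it with glutamate through EARS2 and then amidating it. Several cytosolic enzymes sit together in a multi-synthetase complex. Many cytosolic synthetase genes are known targets of ATF4, the transcription factor of the amino acid response.

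The comparison of the classes showed cytosolic synthetases falling in both lines and mitochondrial synthetases falling in Caki-1. In 769-P at 24 h the share of mitochondrial synthetases called, 43.8%, lay under the 55.7% of all genes tested. After 24 h in Caki-1, 15 of 19 cytosolic genes fell and 1 rose, where 62.8% of all 12423 genes tested were called (29.9% fell and 32.9% rose). In the same comparison 10 of 16 mitochondrial genes fell and 1 rose. After 24 h in 769-P, 15 of 19 cytosolic genes fell and 1 rose, while 3 of 16 mitochondrial genes fell and 4 rose, beside 55.7% of 12354 genes called (24.6% fell and 31.1% rose). Cytosolic changes at 24 h had medians of -0.47 (Caki-1) and -0.54 (769-P) on the log2 scale. Mitochondrial changes had medians of -0.27 and -0.10, and the medians of all genes tested were 0.08 and 0.04. With the replicate number as a block in 769-P at 24 h, 5 mitochondrial genes fell in place of 3, with CARS2 and YARS2 added, and 2 cytosolic genes rose, with WARS1 added. Correlations of equally numbered arrays in that comparison were 0.12 to 0.17, past the cut of 0.1 used here for pairs. Without the third DMSO array of 769-P, 6 mitochondrial genes fell.

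At 6 h few synthetases had moved. In Caki-1, 3 of 19 cytosolic genes fell and 1 rose, and 3 of 16 mitochondrial genes fell and 2 rose, beside 26.3% of all genes called (14% fell and 12.3% rose). In 769-P, 5 cytosolic genes fell and 2 rose, and 2 mitochondrial genes fell, beside 30.9% of all genes called (14.5% fell and 16.4% rose). The shares of synthetases called at 6 h were 21.1% and 31.2% in Caki-1 and 36.8% and 12.5% in 769-P, cytosolic first, so these lay on either side of the background. The counts at this time also moved with single arrays. Without the third replicates of Caki-1, for example, 1 gene of each class fell.

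By 12 h the cytosolic genes had moved in both lines. In Caki-1, 14 cytosolic genes fell and 1 rose, and 5 mitochondrial genes fell, beside 48.4% of all genes called (24.4% fell and 24.1% rose). In 769-P, 12 cytosolic genes fell and 2 rose, and 4 mitochondrial genes fell and 2 rose, beside 47.5% of all genes called (22.6% fell and 24.9% rose). The cytosolic median was -0.37 in Caki-1 and -0.42 in 769-P, and the mitochondrial median was -0.10 and 0.09. The last of these had no stable sign, at -0.01 when the probe sets of each gene were averaged. The count of 4 mitochondrial falls in 769-P became 2 without either of the DMSO arrays 1 and 2 and without either of the 12 h arrays 1 and 3, and the count of 2 rises became 1 without any DMSO array or without the first 12 h array, and 0 without the second.

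Averaged over the class in each array, the cytosolic genes of Caki-1 lay at 10.82 ± 0.02 (SD, n = 3) under DMSO and at 10.74 ± 0.02, 10.45 ± 0.06 and 10.29 ± 0.03 at 6, 12 and 24 h. In 769-P the same mean lay at 10.86 ± 0.07 under DMSO and at 10.75 ± 0.03, 10.50 ± 0.04 and 10.37 ± 0.06. Every array at 12 or 24 h lay below every DMSO array of its line. The mitochondrial mean in Caki-1 lay at 8.64 ± 0.05 under DMSO and at 8.57 ± 0.08, 8.34 ± 0.02 and 8.20 ± 0.06. In 769-P it lay at 8.85 ± 0.03 under DMSO and at 8.81 ± 0.02, 8.80 ± 0.06 and 8.86 ± 0.02, so the 24 h arrays overlapped the DMSO arrays. The distance between the class means narrowed in 769-P from 2.01 ± 0.06 under DMSO to 1.94 ± 0.04, 1.69 ± 0.04 and 1.51 ± 0.06, and in Caki-1 from 2.19 ± 0.03 to 2.18 ± 0.06, 2.11 ± 0.09 and 2.09 ± 0.03 at the same times. These class means are descriptions without a test, and the distance itself does not rank the classes, since probe sets differ in affinity.

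**Figure D1:**
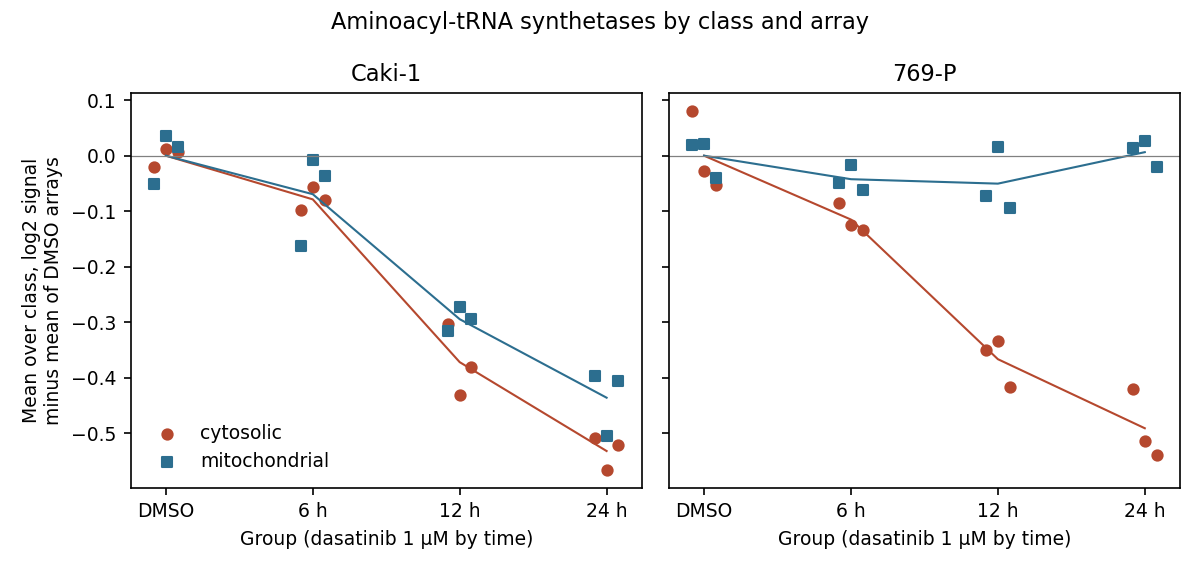
Mean log2 signal over the 19 cytosolic (circles) and 16 mitochondrial (squares) synthetases in each of the 24 arrays, less the mean of the line's 3 DMSO arrays, by group. Lines join group means. Cytosolic means fell with time in both lines, while mitochondrial means fell in Caki-1 and overlapped the DMSO arrays at 24 h in 769-P.

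The genes whose values in every array follow were taken by rule: those with the largest called changes at 24 h in each line and class, those with the largest called differences between the lines, and any called in opposite directions. Values of QARS1, HARS1, TARS1 and the other genes outside that rule were chosen after they were seen.

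The beta subunit of phenylalanyl-tRNA synthetase had the steepest fall of the cytosolic class in both lines at 24 h. FARSB, the gene of this subunit, which holds the editing site, lay at 10.63, 10.68 and 10.80 in the DMSO arrays of Caki-1. It lay at 10.41, 10.35 and 10.28 at 6 h, 9.40, 9.23 and 9.23 at 12 h and 8.90, 8.95 and 8.83 at 24 h. No array at any time overlapped DMSO, and the 24 h arrays were all below those at 12 h. FARSB fell by 1.81 ± 0.07 at 24 h, a 3.51-fold fall (limma adjusted p = 9.03e-11). In 769-P it lay at 10.96, 10.90 and 10.75 under DMSO, 10.51, 10.54 and 10.40 at 6 h, 9.75, 9.76 and 9.66 at 12 h and 9.70, 9.59 and 9.54 at 24 h. There too the groups with drug lay below DMSO at every time, but those at 12 and 24 h overlapped. The fall at 24 h in 769-P was 1.26 ± 0.07 (limma adjusted p = 8.68e-10), and the difference, Caki-1 less 769-P, was -0.55 ± 0.10 (limma adjusted p = 0.00014). FARSA, the alpha subunit with the catalytic site, fell by 0.53 already at 6 h in Caki-1 and by 0.47 in 769-P, and at 24 h by 0.91 ± 0.11 and by 0.56 ± 0.11. The difference between the lines for FARSA, -0.35 ± 0.16 with an unadjusted 95% interval of -0.68 to -0.02, was not called after adjustment, although it was without the first replicates, at -0.57. Of the other 4 probe sets of FARSB, 3 with means of 8.12 to 8.69 over all arrays lay 1.60 to 2.40 below DMSO at 24 h in Caki-1 (changes of -1.60, -2.05 and -2.40), and the dimmest, with a mean of 3.68, stood at 0.003.

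Methionyl-, valyl- and leucyl-tRNA synthetase of the cytosol each fell by about 1 log2 unit in Caki-1. MARS1, which charges both the initiator and the elongator methionine transfer RNA, lay at 9.77, 9.75 and 9.58 under DMSO in Caki-1, 9.62, 9.72 and 9.61 at 6 h, 9.28, 8.89 and 8.89 at 12 h and 8.76, 8.49 and 8.71 at 24 h. The 769-P values were 9.82, 9.66 and 9.55 (DMSO), 9.58, 9.53 and 9.44 (6 h), 8.87, 8.90 and 8.77 (12 h) and 8.84, 8.68 and 8.69 (24 h). In each line the 6 h arrays overlapped DMSO and the 12 and 24 h arrays did not. MARS1 fell by 1.05 ± 0.11 at 24 h in Caki-1 and by 0.94 ± 0.09 in 769-P (limma adjusted p = 5.94e-07 and 1.35e-07), with a difference of -0.11 ± 0.14 and an interval of -0.40 to 0.18.

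VARS1, the valine enzyme, lay at 9.11, 9.27 and 9.10 under DMSO in Caki-1, 8.95, 8.98 and 8.91 at 6 h, 8.40, 8.14 and 8.36 at 12 h and 8.21, 7.97 and 8.02 at 24 h. The values in 769-P were 9.16, 9.08 and 9.03 (DMSO), 9.13, 9.06 and 9.08 (6 h), 8.54, 8.83 and 8.64 (12 h) and 8.57, 8.42 and 8.31 (24 h). All 12 h and 24 h arrays lay below DMSO in both lines, and at 6 h those of 769-P overlapped DMSO. VARS1 fell by 1.09 ± 0.09 in Caki-1 and by 0.66 ± 0.09 in 769-P at 24 h. The difference of -0.43 ± 0.13 was called (limma adjusted p = 0.0101), but it was not called with the mean of all its probe sets (-0.14) or without the second replicates (-0.33). That mean also gave smaller changes within the lines, of -0.49 in Caki-1 and -0.35 in 769-P, both still called. LARS1, the leucine enzyme and a reported leucine sensor for mTORC1, fell by 1.03 ± 0.07 in Caki-1 and by 0.79 ± 0.07 in 769-P.

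The tyrosine, glycine and threonine enzymes fell further in 769-P than in Caki-1. YARS1, the tyrosine enzyme, lay in 769-P at 10.48, 10.60 and 10.49 under DMSO, 10.38, 10.26 and 10.24 at 6 h, 9.81, 9.69 and 9.85 at 12 h and 9.72, 9.51 and 9.45 at 24 h. In Caki-1 it lay at 10.54, 10.52 and 10.58 (DMSO), 10.43, 10.41 and 10.41 (6 h), 10.10, 10.04 and 10.22 (12 h) and 10.12, 10.13 and 9.99 (24 h). Every array with drug lay below every DMSO array of its line. YARS1 fell by 0.96 ± 0.08 at 24 h in 769-P and by 0.47 ± 0.06 in Caki-1, and the difference of 0.50 ± 0.10 was called (limma adjusted p = 0.000442).

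GARS1, the glycine enzyme of both compartments, lay in 769-P at 12.43, 12.39 and 12.31 under DMSO, 12.26, 12.27 and 12.23 at 6 h, 11.84, 11.82 and 11.76 at 12 h and 11.65, 11.64 and 11.71 at 24 h. In Caki-1 the values were 11.96, 12.05 and 12.05 (DMSO), 11.99, 12.10 and 12.05 (6 h), 11.89, 11.81 and 11.88 (12 h) and 11.80, 11.79 and 11.85 (24 h). Under DMSO GARS1 was brighter in 769-P than in Caki-1 without overlap, and at 24 h it was dimmer there without overlap. It fell by 0.71 ± 0.05 in 769-P and by 0.20 ± 0.05 in Caki-1, with a difference of 0.51 ± 0.06 (limma adjusted p = 1.77e-06). The Caki-1 change was -0.12 after quantile normalization and still called. TARS1, the threonine enzyme, was the only member called between the lines at 6 h, where 8.09% of 12864 genes were called. For 769-P the values were 12.22, 12.08 and 12.02 under DMSO and 11.57, 11.59 and 11.52 after 6 h. The Caki-1 arrays gave 12.35, 12.29 and 12.40 under DMSO and 12.24, 12.22 and 12.24 after 6 h. Its arrays at 6 h lay below DMSO in both lines, but it fell by 0.55 ± 0.07 in 769-P, while the Caki-1 change of -0.12 ± 0.06 was not called. The difference of 0.43 ± 0.09 had a limma adjusted p of 0.00255, and 0.0542 without the second replicates. At 24 h TARS1 had fallen by 0.91 in 769-P and by 0.53 in Caki-1, and the difference of 0.38 was 0.22 with the mean of its probe sets.

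QARS1, the glutamine enzyme, was the only cytosolic member to rise in both lines at 24 h. It lay in Caki-1 at 10.23, 10.22 and 10.16 under DMSO, 10.31, 10.48 and 10.41 at 6 h, 10.48, 10.60 and 10.66 at 12 h and 10.83, 10.85 and 10.82 at 24 h. In 769-P the signals were 10.08, 10.14 and 10.15 (DMSO), 10.30, 10.44 and 10.42 (6 h), 10.45, 10.75 and 10.57 (12 h) and 10.75, 10.76 and 10.70 (24 h). Every array with drug lay above every DMSO array of its line from 6 h on. QARS1 rose by 0.63 ± 0.06 in Caki-1 and by 0.61 ± 0.08 in 769-P at 24 h (limma adjusted p = 5.22e-07 and 3.94e-06), and the difference of 0.02 ± 0.10 had an interval of -0.18 to 0.22. These values are of the brightest probe set. The other probe set of QARS1, with a mean of 7.41 over all arrays, stood at 0.55 in Caki-1 and 0.20 in 769-P at 24 h.

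**Figure D2:**
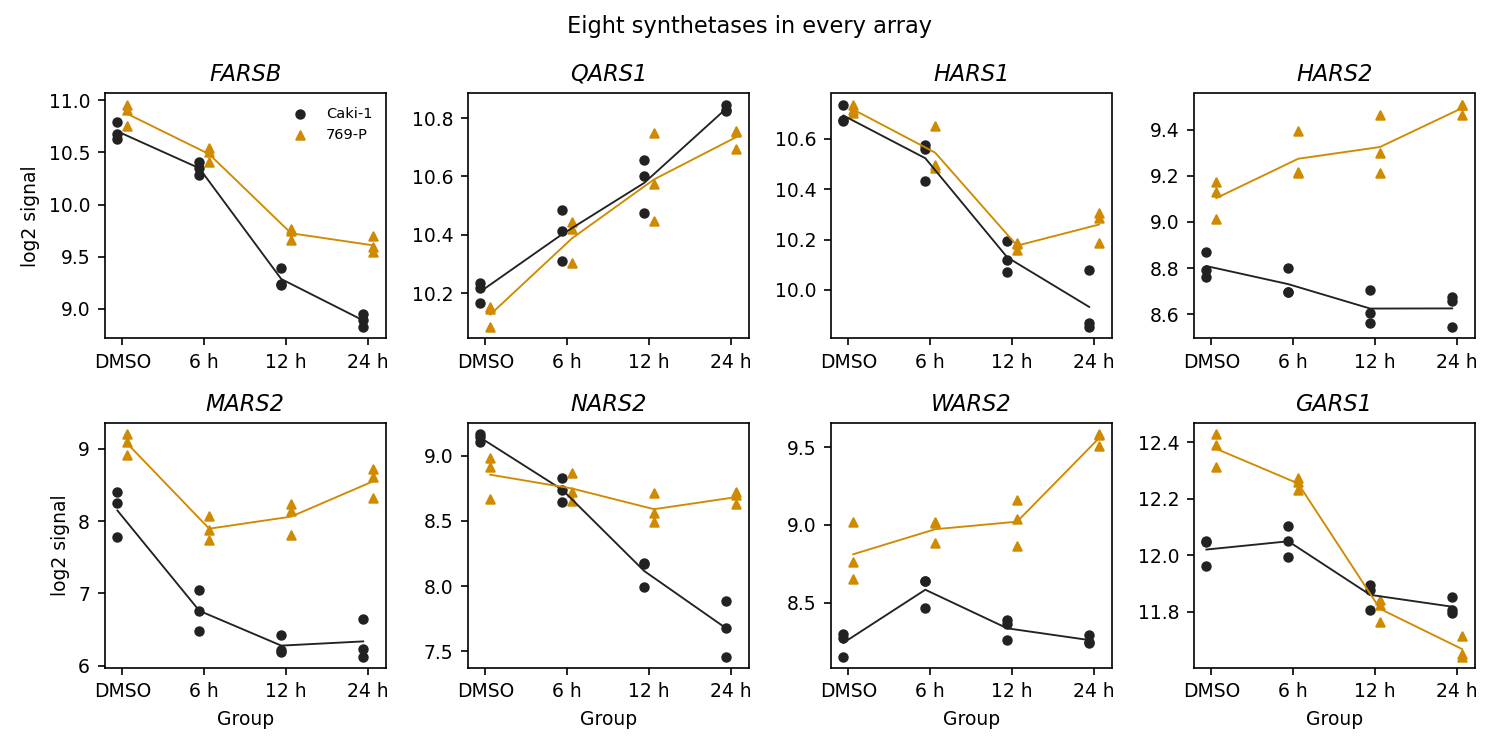
Log2 signal of 8 synthetases in each of the 24 arrays (circles Caki-1, triangles 769-P) by group, with lines through group means. Axes differ between panels and do not start at 0. FARSB fell and QARS1 rose in both lines, HARS1 fell while HARS2 moved apart between the lines, MARS2 fell by 6 h in both and was higher again at 24 h in 769-P, and NARS2 fell with time in Caki-1.

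Of the other cytosolic genes, HARS1 (histidine), KARS1 (lysine), NARS1 (asparagine), AARS1 (alanine), RARS1 (arginine) and IARS1 (isoleucine) fell in both lines at 24 h. Their changes in Caki-1 ranged from -0.76 for HARS1 to -0.35 for IARS1, and in 769-P from -0.62 for IARS1 to -0.31 for RARS1. The change of NARS1 in 769-P moved from -0.42 to -0.73 with the mean of its probe sets. IARS1 fell by 0.14 at 12 h in Caki-1 and had not been called at 12 h in 769-P, at -0.12. EPRS1, the joined glutamate and proline enzyme, fell by 0.44 ± 0.07 in 769-P and was not called in Caki-1, at -0.12 ± 0.07. The difference of 0.31 ± 0.10 was called (limma adjusted p = 0.0148), though it missed the threshold without any one of the 3 replicate numbers (adjusted p from 0.0506 to 0.111).

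The remaining cytosolic genes, CARS1, SARS1 and WARS1, were not called in both lines at 24 h. CARS1 (cysteine) fell by 0.27 in Caki-1, a call lost after quantile normalization (-0.17, adjusted p = 0.173), without the first DMSO array and without either of the 24 h arrays 2 and 3, and its change in 769-P was -0.10 ± 0.08. SARS1 (serine) was called at no time in either line, with intervals at 24 h of -0.25 to 0.03 in Caki-1 and -0.33 to 0.08 in 769-P. WARS1 (tryptophan), a gene known to respond to interferon gamma, rose by 0.48 ± 0.13 at 6 h and by 0.58 ± 0.13 at 12 h in 769-P and was not called there at 24 h, at 0.26 ± 0.13. Without the third 24 h array of 769-P that change was 0.39 and was called. In Caki-1 WARS1 was not called at any time from its brightest probe set, but with the mean of its 4 probe sets it fell at 24 h (-0.23, limma adjusted p = 0.0106). Its next brightest probe set, with a mean of 8.74, stood at -0.41 in Caki-1 and -0.11 in 769-P at that time.

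The 7 synthetases of the multi-synthetase complex in the list (EPRS1, IARS1, KARS1, LARS1, MARS1, QARS1 and RARS1) were counted apart. In Caki-1, 5 fell and 1 rose at 24 h, with a median of -0.53, and in 769-P 6 fell and 1 rose, with a median of -0.54, beside the 62.8% and 55.7% of all genes called. At 6 h, 1 fell and 1 rose in Caki-1, and 1 rose in 769-P, where 26.3% and 30.9% of all genes were called, so these shares at 6 h lay near or under the background. QARS1 was the riser each time, so genes for members of this complex changed in opposite directions. AIMP1, a scaffold protein of the complex, fell by 0.38 ± 0.06 in Caki-1 at 24 h and stood at 0.08 ± 0.07 in 769-P, and the difference of -0.45 ± 0.09 was called (limma adjusted p = 0.000433). The other scaffold genes were not analysed here.

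The promoters of the cytosolic genes are shown because many of those genes fell together, and because the amino acid response acts through a known DNA element. RefSeq promoter sequences of GRCh38.p14, taken at the first-listed start of each gene from 250 bases before to 50 bases after it, matched 30 of the 35 members, all but VARS1, LARS1, YARS1, AARS2 and VARS2. The C/EBP-ATF response element, to which ATF4 binds with a C/EBP partner, was searched as TGATGNAA on both strands. It was found in 6 of 16 cytosolic promoters (37.5%) and 1 of 14 mitochondrial promoters (7.14%), beside 3.67% of the 27305 promoters of the table and 2.57% of the 14425 whose genes are on the arrays. The 7 windows of 30 bases follow in the direction of the gene, with the element in capitals, which reads TTGCATCA where it lies on the opposite strand.
AARS1 (chr16:70289675-70289704, - strand): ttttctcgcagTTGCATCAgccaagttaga
CARS1 (chr11:3057407-3057436, - strand): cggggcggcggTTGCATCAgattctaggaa
IARS1 (chr9:92293692-92293721, - strand): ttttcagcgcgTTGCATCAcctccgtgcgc
MARS1 (chr12:57488053-57488082, + strand): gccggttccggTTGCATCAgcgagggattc
NARS1 (chr18:57621804-57621833, - strand): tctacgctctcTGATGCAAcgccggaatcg
TARS1 (chr5:33440956-33440985, + strand): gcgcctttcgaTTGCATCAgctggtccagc
YARS2 (chr12:32756076-32756105, - strand): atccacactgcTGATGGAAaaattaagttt

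In MARS1, CARS1 and IARS1 the element began 4, 2 and 13 bases before the start, and in TARS1 and NARS1 it lay at positions 3 and 15 of the transcript. In AARS1 and YARS2 it lay further out, 187 and 197 bases before the start. The start listed first for TARS1 lies within the gene, whose span on chromosome 5 runs from 33440696 to 33468091. A match is a description of these letters and not a measured site. The 6 cytosolic genes with the element all fell at 24 h in Caki-1, by 0.27 (CARS1) to 1.05 (MARS1), and in 769-P all but CARS1 fell, with MARS1 again the furthest at -0.94. These stand beside falls of 15 of 19 cytosolic genes in each line, and of 29.9% (Caki-1) and 24.6% (769-P) of all genes. Of cytosolic genes whose promoters did not hold these letters, FARSA, FARSB, GARS1, HARS1, KARS1 and RARS1 fell in both lines and EPRS1 in 769-P. QARS1 rose, and SARS1 and WARS1 were called in neither line. Whether the element bears on the falls was not tested.

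Genes of the amino acid response other than synthetases moved in both directions. Of the 30 in the list, 15 rose and 9 fell at 24 h in Caki-1, with a median of 0.17, and 14 rose and 12 fell in 769-P, with a median of -0.06. Over all genes 32.9% rose and 29.9% fell in Caki-1, and 31.1% rose and 24.6% fell in 769-P. ATF4 itself rose by 0.16 ± 0.06 in Caki-1 and fell by 0.15 ± 0.06 in 769-P. Both ATF4 calls were lost without single arrays, in Caki-1 without either of the DMSO arrays 2 and 3 or the 24 h arrays 2 and 3 (0.13 to 0.16) and in 769-P without either of the DMSO arrays 1 and 3 or the second 24 h array (-0.17 to -0.09), and the one in 769-P also after quantile normalization (-0.08). ASNS, the asparagine synthetase and a textbook target of ATF4, fell by 1.07 and by 0.55. The largest changes were rises of CTH, an enzyme of cysteine synthesis, and NUPR1, a stress-induced nuclear protein, in Caki-1 (2.71 and 2.64), and in 769-P a fall of MTHFD2, a mitochondrial folate enzyme (a change of -2.999), and a rise of ATF3, a stress-induced transcription factor, by 2.10.

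Among the mitochondrial enzymes MARS2, NARS2 and EARS2 fell furthest in Caki-1. MARS2, the methionine enzyme, lay in Caki-1 at 7.78, 8.41 and 8.26 under DMSO, 6.48, 7.04 and 6.76 at 6 h, 6.198, 6.42 and 6.21 at 12 h and 6.65, 6.13 and 6.24 at 24 h. The signals in 769-P were 9.10, 9.20 and 8.92 (DMSO), 8.07, 7.88 and 7.74 (6 h), 8.24, 7.80 and 8.14 (12 h) and 8.72, 8.61 and 8.32 (24 h). All arrays with drug lay below the DMSO arrays of their line, and in 769-P all 24 h arrays lay above all of those at 6 h and at 12 h. MARS2 fell by 1.39 ± 0.18 at 6 h in Caki-1, a larger change than any other member had at that time, and by 1.18 ± 0.13 in 769-P (limma adjusted p = 4.39e-05 and 5.62e-06). At 24 h the fall was 1.81 ± 0.18 in Caki-1 and 0.52 ± 0.13 in 769-P, and the difference between the lines was -1.29 ± 0.24 (limma adjusted p = 0.00015). Between 6 and 24 h MARS2 rose by 0.66 ± 0.13 in 769-P (limma adjusted p = 0.000732), and its change in Caki-1 of -0.42 ± 0.18 was not called. These values are of the brightest probe set. With the mean of its 3 probe sets, of which the others have means of 5.39 and 5.07, the Caki-1 change at 24 h was -0.95 and the difference between the lines -0.55, both called.

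NARS2, the asparagine enzyme, had a line difference of the same size. The Caki-1 values were 9.14, 9.16 and 9.11 under DMSO, 8.74, 8.83 and 8.65 at 6 h, 8.18, 8.17 and 7.997 at 12 h and 7.89, 7.46 and 7.68 at 24 h. For 769-P the signals were 8.98, 8.91 and 8.66 (DMSO), 8.72, 8.87 and 8.65 (6 h), 8.56, 8.71 and 8.49 (12 h) and 8.70, 8.63 and 8.72 (24 h). The Caki-1 groups followed each other downwards without overlap, while in 769-P the 24 h arrays overlapped DMSO. NARS2 fell by 1.46 ± 0.10 in Caki-1, a 2.75-fold fall (limma adjusted p = 1.03e-08), and was not called in 769-P at -0.17 ± 0.10. Without the third DMSO array of 769-P, which was the lowest of that group, the 769-P change was -0.27 and was called. The difference between the lines at 24 h was -1.29 ± 0.14 (limma adjusted p = 2.1e-07).

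EARS2, the glutamate enzyme that also starts the route to mitochondrial glutamine transfer RNA, fell in both lines. The values in Caki-1 were 8.57, 8.91 and 8.88 under DMSO, 8.31, 8.77 and 8.60 at 6 h, 7.91, 8.04 and 7.99 at 12 h and 7.68, 7.72 and 7.85 at 24 h. The 769-P signals were 9.27, 9.14 and 9.10 (DMSO), 8.67, 8.69 and 8.75 (6 h), 8.58, 8.62 and 8.47 (12 h) and 8.44, 8.46 and 8.51 (24 h). At 6 h the groups overlapped in Caki-1 and not in 769-P, and from 12 h on they overlapped in neither. EARS2 fell by 1.04 ± 0.12 in Caki-1 and by 0.70 ± 0.08 in 769-P at 24 h (limma adjusted p = 1.78e-06 and 1.22e-06). The difference of -0.34 ± 0.14 had an interval of -0.63 to -0.05 and was called only with the replicate block or without the first replicates among the alternatives run. With the mean of its 4 probe sets the Caki-1 change was -0.63 and still called.

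WARS2, the tryptophan enzyme, rose after 24 h in 769-P. It lay in that line at 8.65, 8.76 and 9.02 under DMSO, 8.89, 9.02 and 9.01 at 6 h, 8.86, 9.16 and 9.04 at 12 h and 9.58, 9.51 and 9.59 at 24 h. The signals in Caki-1 were 8.15, 8.27 and 8.30 (DMSO), 8.46, 8.64 and 8.64 (6 h), 8.26, 8.38 and 8.36 (12 h) and 8.24, 8.24 and 8.29 (24 h). In Caki-1 the 6 h arrays lay above DMSO and those at 24 h overlapped it. WARS2 rose by 0.75 ± 0.10 in 769-P at 24 h (limma adjusted p = 8.99e-06), and in Caki-1 it rose by 0.34 ± 0.08 at 6 h and stood at 0.02 ± 0.08 at 24 h. The difference between the lines at 24 h was -0.73 ± 0.13 (limma adjusted p = 8.23e-05). The other 3 probe sets of WARS2 stood lower in 769-P, at changes of 0.31, 0.25 and 0.08, and with the mean of all 4 the rise was 0.35 and the difference -0.39, both called.

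HARS2 was the only member called in opposite directions at 24 h. HARS2, the mitochondrial histidine enzyme, lay in 769-P at 9.13, 9.17 and 9.01 under DMSO, 9.22, 9.21 and 9.39 at 6 h, 9.30, 9.46 and 9.21 at 12 h and 9.51, 9.46 and 9.51 at 24 h. For Caki-1 the values were 8.76, 8.87 and 8.79 (DMSO), 8.70, 8.80 and 8.70 (6 h), 8.71, 8.56 and 8.61 (12 h) and 8.68, 8.66 and 8.54 (24 h). At 24 h the arrays lay above DMSO in 769-P and below it in Caki-1, without overlap. HARS2 rose by 0.39 ± 0.08 in 769-P (limma adjusted p = 0.000849) and fell by 0.18 ± 0.07 in Caki-1 (limma adjusted p = 0.0426), and the difference of -0.57 ± 0.11 was called (limma adjusted p = 0.000194). The Caki-1 call was close to the threshold. It was lost after quantile normalization (-0.08, adjusted p = 0.363), without a filter on dim genes (adjusted p = 0.0608), and without either of the DMSO arrays 2 and 3 or the 24 h arrays 2 and 3 (adjusted p from 0.0575 to 0.148), with the direction kept.

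HARS1, the cytosolic histidine enzyme, is the neighbour of HARS2 and is transcribed away from it. HARS1 lay in Caki-1 at 10.67, 10.73 and 10.68 under DMSO, 10.57, 10.56 and 10.43 at 6 h, 10.20, 10.07 and 10.12 at 12 h and 10.08, 9.87 and 9.85 at 24 h. The values of HARS1 in 769-P were 10.70, 10.71 and 10.74 (DMSO), 10.65, 10.49 and 10.50 (6 h), 10.19, 10.18 and 10.16 (12 h) and 10.29, 10.19 and 10.30 (24 h). Every array with drug lay below DMSO in both lines. HARS1 fell by 0.76 ± 0.07 in Caki-1 and by 0.46 ± 0.06 in 769-P at 24 h (limma adjusted p = 2.26e-07 and 1.54e-05), so in 769-P the neighbours moved in opposite directions. The 84 bases between their annotated starts, 59.5% of them G or C, are shown because both genes start from this one stretch. It reads as follows, with the HARS2 direction left to right and HARS1 starting beyond its left end.
HARS1-HARS2 interval (GRCh38.p14, chr5:140691371-140691454, + strand): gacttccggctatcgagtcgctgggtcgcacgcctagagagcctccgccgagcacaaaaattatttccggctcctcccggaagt

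The other mitochondrial genes that fell in Caki-1 at 24 h were YARS2 (tyrosine), LARS2 (leucine), TARS2 (threonine), AARS2 (alanine), IARS2 (isoleucine) and FARS2 (phenylalanine). Their changes ran from -0.73 for YARS2 to -0.26 for FARS2. FARS2 lost its call after quantile normalization, at -0.16. In 769-P only AARS2 of these was called, at -0.25, and that call was lost without a filter on dim genes (adjusted p = 0.0639) and without any one of 4 of the 6 arrays compared, DMSO arrays 1 and 2 and 24 h arrays 1 and 3. The changes of YARS2, LARS2 and FARS2 differed between the lines, by -0.55, -0.69 and -0.42, and those of TARS2 (-0.35 ± 0.17) and IARS2 (-0.17 ± 0.09) were not called as different.

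PARS2 (proline) rose in both lines at 24 h, by 0.34 in Caki-1 and 0.45 in 769-P. Both calls were lost with the mean of its probe sets (0.16 and 0.13), since a dim second probe set with a mean of 3.90 did not rise, and the one in Caki-1 was also lost without the second DMSO array (0.29, adjusted p = 0.0517). VARS2 (valine) rose in 769-P by 0.47 and stood at 0.12 ± 0.07 in Caki-1. In 769-P the rise of VARS2 was 0.27 with the mean of its probe sets and still called. CARS2 (cysteine), RARS2 (arginine) and SARS2 (serine) were called in neither line at 24 h in the main fits. Their changes there lay between -0.08 and 0.005 in Caki-1 and between -0.16 and 0.20 in 769-P. Some alternatives called a fall of CARS2 in 769-P. These were the replicate block (limma adjusted p = 0.0317), the filter at the median (limma adjusted p = 0.047), and leaving out the third DMSO array or the first 24 h array (-0.20 each). SARS2 was called as risen in 769-P without the second DMSO array (0.33, limma adjusted p = 0.0385).

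**Figure D3:**
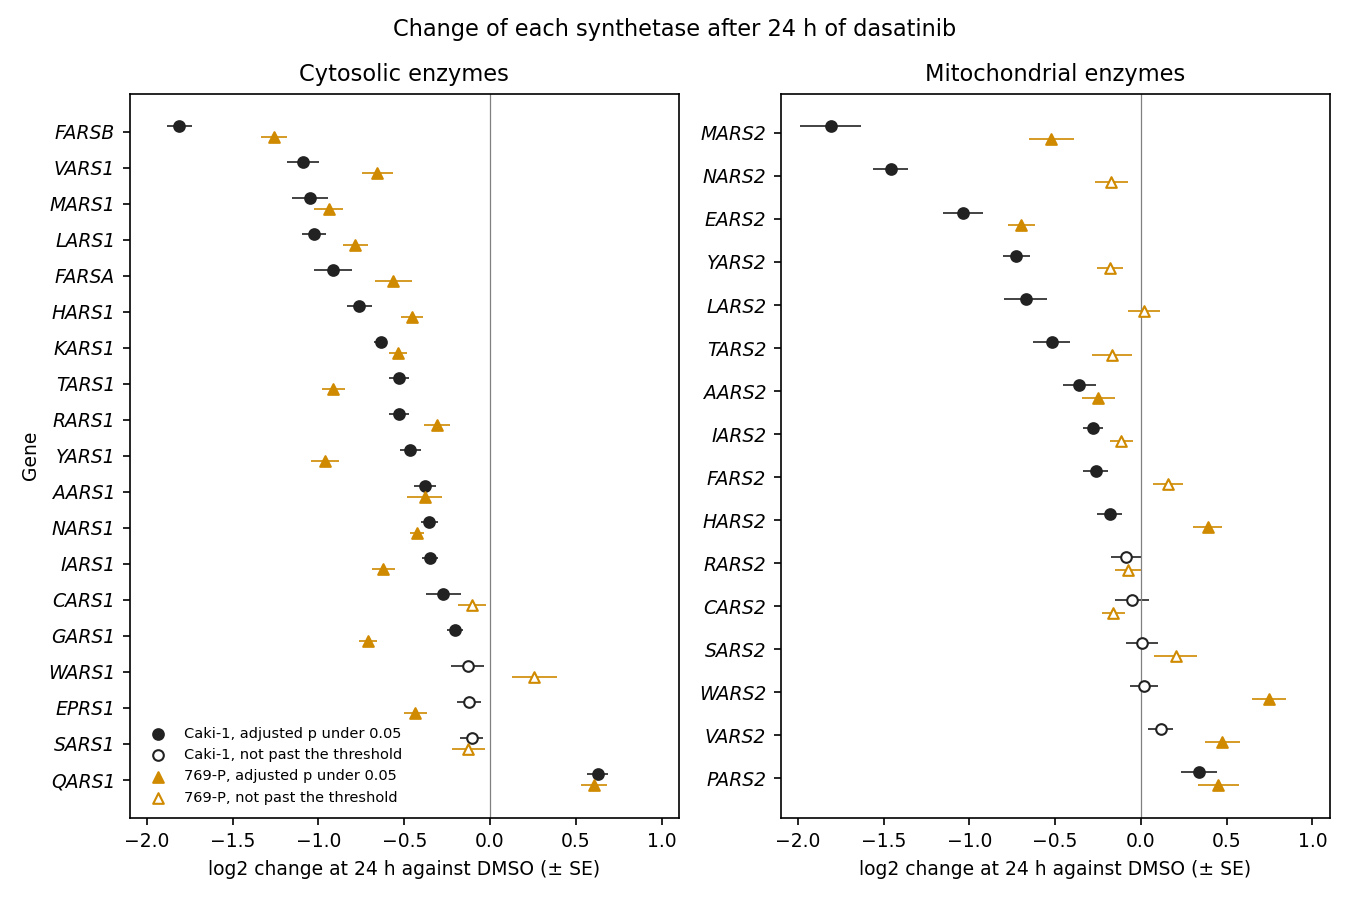
Change of log2 signal ± SE at 24 h against DMSO for each synthetase (3 arrays in each group), cytosolic genes on the left and mitochondrial genes on the right, in order of the Caki-1 change. Filled symbols passed an adjusted p of 0.05 in limma. In the cytosolic panel the lines mostly lie on the same side of 0, and in the mitochondrial panel the 769-P symbols lie to the right of those of Caki-1 for 15 of 16 genes.

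A second element was searched in the same promoters because MYC, a transcription factor that promotes growth, binds the E-box CACGTG, which reads the same on both strands. It was found in 3 of 14 mitochondrial promoters (21.4%) and in 1 of 16 cytosolic promoters (6.25%), beside 7.43% of all promoters of the table and 8.82% of those of genes on the arrays. The windows are given in the direction of the gene with the E-box in capitals, and in IARS1 it lies apart from the ATF4 element given above.
MARS2 (chr2:197705347-197705376, + strand): tgcgcctctcaCACGTGctgtcagaacgcc
EARS2 (chr16:23557347-23557376, - strand): agggagaagccCACGTGtgctattccatcc
CARS2 (chr13:110706500-110706529, - strand): gctgggatgcaCACGTGcttcgctaacagg
IARS1 (chr9:92293865-92293894, - strand): ggttcgttttcCACGTGgaggcgcaaaacc

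In MARS2, EARS2 and CARS2 the E-box began 11, 15 and 3 bases before the start. The start listed first for CARS2 lies within the gene, whose span on chromosome 13 runs from 110641410 to 110713522. The same holds for EARS2, whose span on chromosome 16 runs from 23520754 to 23557375. MARS2, EARS2 and IARS1 fell in both lines at 24 h, and CARS2 was called in neither in the main fits, where 29.9% (Caki-1) and 24.6% (769-P) of all genes fell. Here too a match describes letters and is not a measured site. MYC fell by 1.13 ± 0.11 at 6 h, by 1.12 ± 0.11 at 12 h and by 0.85 ± 0.11 at 24 h in Caki-1, and its changes in 769-P at those times were -3.51 ± 0.16, -2.798 ± 0.16 and -0.91 ± 0.16, all called. MARS2 at the same times stood at -1.39, -1.87 and -1.81 in Caki-1 and at -1.18, -1.01 and -0.52 in 769-P. The difference between the lines in the change of MARS2 was not called at 6 h. Whether MYC bears on MARS2 or the other genes with an E-box was not tested. Of the 9 genes in the list of MYC and its partners, 3 rose and 1 fell in Caki-1 at 24 h and 3 rose and 2 fell in 769-P, where 62.8% and 55.7% of all genes were called. MXD4 and MXI1, which compete with MYC for its partner MAX, rose by 1.96 and 1.61 in Caki-1 and by 1.29 and 1.93 in 769-P. With the mean of its probe sets MXD4 rose by 1.23 in Caki-1 and 0.78 in 769-P, and MXI1 by 1.11 in 769-P, all still called. That setting gave 3 falls in this list in Caki-1 and 1 in 769-P.

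Set beside each other by amino acid, 17 pairs could be formed from the 16 mitochondrial genes and their cytosolic partners. FARS2 was paired with both FARSA and FARSB, and EPRS1 with both EARS2 and PARS2. At 24 h the mitochondrial change lay above the cytosolic one in 13 of 17 pairs in Caki-1 and in 15 of 17 in 769-P, as a description without a test. Of the 13 in Caki-1, those of threonine, alanine and isoleucine had gaps of only 0.012, 0.019 and 0.07. All gaps are of the brightest probe sets. The widest gaps were those of phenylalanine, where FARS2 stood 1.55 above FARSB in Caki-1 and 1.42 above it in 769-P, and of valine, where VARS2 stood 1.21 and 1.13 above VARS1. The order was the other way for asparagine, methionine, glutamate and tyrosine in Caki-1, where NARS2 stood below NARS1 by 1.11 (a gap of -1.11), and MARS2, EARS2 and YARS2 stood at gaps of -0.76, -0.92 and -0.26. In 769-P it was the other way only for glutamate (-0.26) and cysteine (-0.06).

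**Figure D4:**
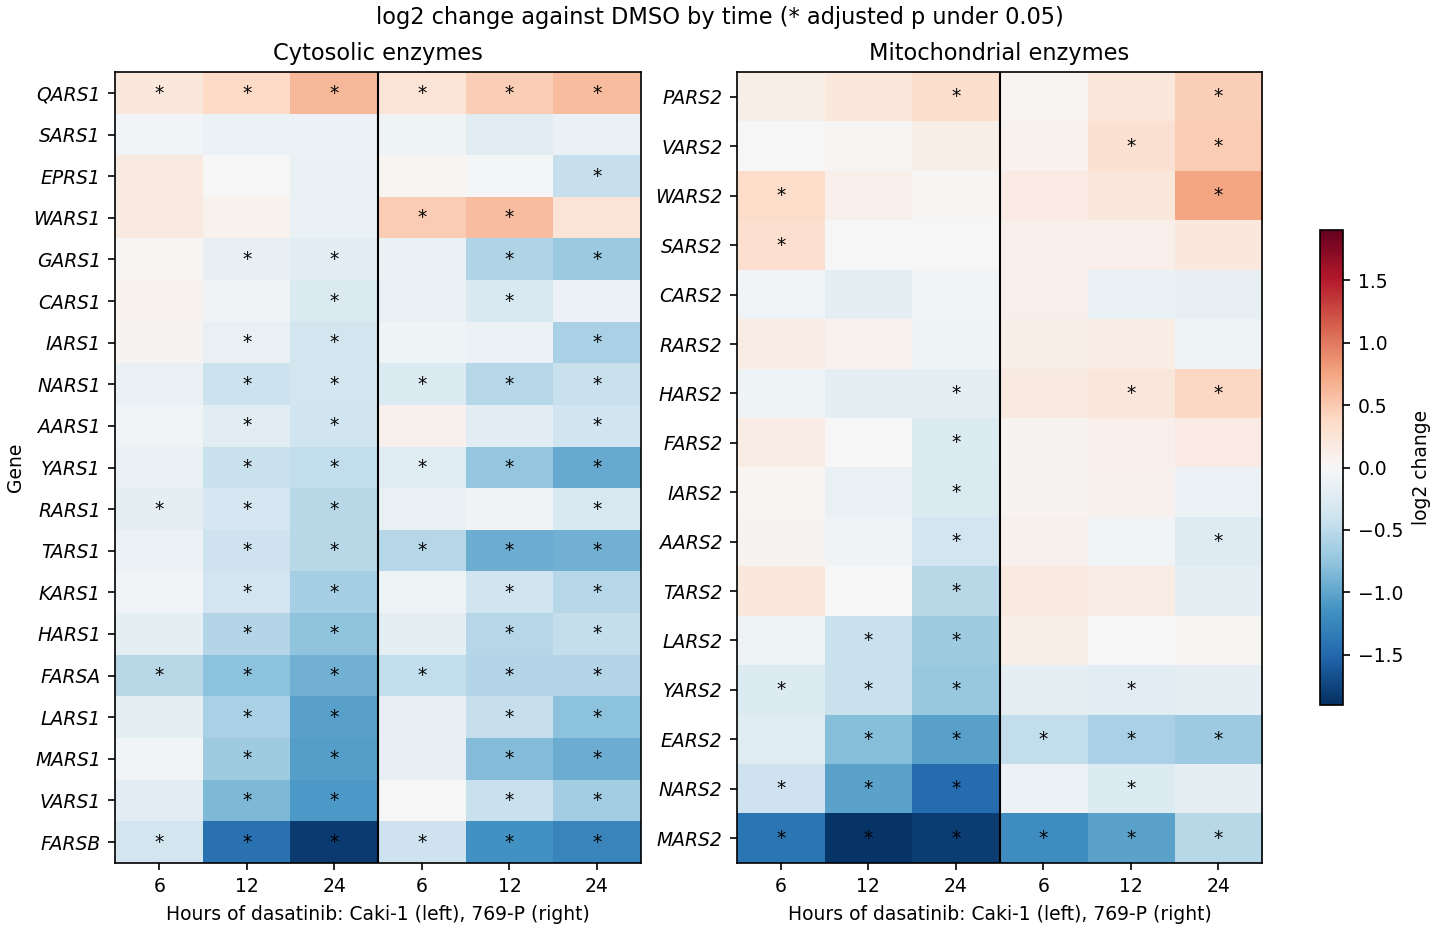
Change of log2 signal against DMSO for each synthetase at 6, 12 and 24 h in Caki-1 and 769-P, with cytosolic genes on the left and mitochondrial genes on the right. Blue is lower and red higher than DMSO, and a star marks an adjusted p under 0.05 in limma. Stars are few at 6 h, and the cytosolic panel is mostly blue from 12 h on in both lines.

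The comparison of 24 h with 6 h leaves out the DMSO arrays. In Caki-1, 17 of 19 cytosolic genes fell and QARS1 rose, and 11 of 16 mitochondrial genes fell and none rose, beside 53.7% of all genes called (25.6% fell and 28.1% rose). In 769-P, 13 cytosolic genes fell and QARS1 rose, and 4 mitochondrial genes fell and 5 rose, beside 44.3% of all genes called (18.5% fell and 25.8% rose). The cytosolic medians were -0.36 in Caki-1 and -0.44 in 769-P, and the mitochondrial medians -0.37 and -0.04. FARSB fell most among the cytosolic genes, by 1.46 ± 0.07 in Caki-1 and by 0.87 ± 0.07 in 769-P, and NARS2 most among the mitochondrial genes of Caki-1, by 1.06 ± 0.10. The mitochondrial genes that rose between these times in 769-P were MARS2, WARS2, PARS2, VARS2 and HARS2, by 0.22 (HARS2) to 0.66 (MARS2). FARSA, which had fallen at 6 h, fell by 0.38 ± 0.11 more in Caki-1 and was not called in 769-P, at -0.09 ± 0.11.

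The difference between the lines was tested as the change in Caki-1 less the change in 769-P. At 24 h, 8 of 19 cytosolic genes were called, 5 higher and 3 lower in Caki-1, and 8 of 16 mitochondrial genes were called, all lower in Caki-1, beside 36% of 12864 genes (13.8% higher and 22.1% lower). The median difference was -0.10 for cytosolic and -0.36 for mitochondrial genes, and -0.01 for all genes tested. The cytosolic genes that had fallen less in Caki-1 were GARS1, YARS1, TARS1, EPRS1 and IARS1, and those that had fallen further were FARSB, VARS1 and HARS1. The mitochondrial genes were MARS2, NARS2, WARS2, LARS2, HARS2, YARS2, FARS2 and VARS2. At 12 h, 5 cytosolic genes (3 higher and 2 lower) and 3 mitochondrial genes (HARS2, MARS2 and NARS2, all lower) were called, beside 18.9% of all genes (8.67% higher and 10.3% lower). The 8 calls at 12 h became 4 without the second replicates and 3 without the third. At 6 h only TARS1 was called, higher in Caki-1, beside 3.68% of all genes called higher and 4.42% lower.

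Under DMSO the lines already differed, and more often for mitochondrial than for cytosolic genes by count. Of the mitochondrial genes 5 were higher and 9 lower in Caki-1, and of the cytosolic genes 4 were higher and 4 lower, beside 58.7% of all genes (28.8% higher and 29.9% lower). The difference between these counts was not tested. CARS2 was lower in Caki-1, at -1.69 ± 0.09, NARS1 at -1.26 ± 0.04, MARS2 at -0.93 ± 0.17 and RARS2 at -0.79 ± 0.08 (limma adjusted p from 3.68e-18 for NARS1 to 3.56e-05 for MARS2). TARS2 was higher in Caki-1 by 0.71 ± 0.12 and VARS2 by 0.69 ± 0.08. In the main fits neither RARS2 nor CARS2 passed the test for a change in either line at 24 h.

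The genes that work beside the synthetases moved as follows at 24 h. Of 13 tested genes for transfer RNA export, CCA addition and end trimming, 12 fell in Caki-1 with a median of -0.90, and in 769-P 7 fell and 2 rose with a median of -0.40. Over all genes 29.9% fell in Caki-1, and 24.6% fell and 31.1% rose in 769-P. RPP40 and POP7, subunits of RNase P, fell by 1.84 and 1.27 in Caki-1. The export receptor XPOT fell in 769-P by 1.15 and the RNase P subunit RPP30 by 0.92. The Caki-1 change was the lower one in 11 of the 13 by the test of the difference, where 22.1% of all genes were called lower in Caki-1, and in 7 of them without the third replicates.

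Of 4 genes that complete mitochondrial glutamine and initiator transfer RNAs, 3 fell in Caki-1, and in 769-P 2 fell and 1 rose, beside 62.8% and 55.7% of all genes called. The 769-P counts were 1 and 0 with the mean of each gene's probe sets. GATC, a subunit of the amidotransferase that follows EARS2, fell by 1.11 in Caki-1 and 0.75 in 769-P. Its 24 h arrays in 769-P read 5.54, 6.77 and 6.95, and without the first of them the change there was -0.31 and still called. Without the first replicates of both groups it was -0.27 and not called, and no gene of this list fell in 769-P. MTFMT, which formylates the methionine that MARS2 attaches, fell by 0.69 and 0.30, and GATB, another subunit of that amidotransferase, rose by 0.41 in 769-P. With the mean of their probe sets the 769-P changes were -0.18 for MTFMT and 0.09 for GATB, and neither was called.

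Of 9 mitochondrial translation factors tested, 6 fell and 1 rose in Caki-1, and 2 fell and 2 rose in 769-P, beside 62.8% and 55.7% of all genes called, so the share in 769-P lay under the background. With the replicate block 4 fell in 769-P. GFM1, the elongation factor G of mitochondria, fell by 0.85 in Caki-1. MTIF3, an initiation factor, rose by 0.51 in Caki-1 and 0.97 in 769-P, and the release factor MTRF1 by 0.60 in 769-P. The direction of MTIF3 in Caki-1 turned with the mean of its probe sets (-0.24, called), which in 769-P gave 0.32. The cytosolic elongation factors, which receive the charged transfer RNAs or move them through the ribosome, were bright. In all but EIF5A, the signals lay above 13 on a scale that reached 15.19, and how far these probe sets can still follow a change was not tested. Of 6, 2 rose and 2 fell in Caki-1, and 1 rose and 2 fell in 769-P, with medians of 0.02 and 0.01. These shares lay near those of all genes called (62.8% and 55.7%). EIF5A, which promotes elongation through difficult sequences, fell by 0.98 and 0.99. EEF2, the translocation factor, rose by 0.25 in Caki-1 (0.45 with the mean of its probe sets), and EEF1B2, an exchange factor for eEF1A, fell by 0.29 in 769-P.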

How the data were processed

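The authors deposited 1 log2 signal for each probe set on each array. MAS5 is named in the submitters' processing notes, and its settings are not given in the sources used here. Because PrimeView carries perfect-match probes only, how MAS5 was applied is unclear, and raw intensities were not used here. Of 49395 probe sets 102 were controls, and 44988 named exactly 1 gene by the platform annotation, updated through Entrez identifiers (1832 named several genes and 2473 had no entry).

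Groups came from the labels alone. Genes were tested if their mean over the 12 arrays of a line lay above the 40th percentile of probe set means (5.379 in Caki-1, 5.361 in 769-P), in at least 1 line for the fits over 24 arrays. Group-means models with an intensity trend were fitted in limma 3.58.1 (R 4.3.3). Dasatinib against DMSO and 24 h against 6 h were fitted within a line (12 arrays, 8 residual degrees of freedom), and the comparisons between lines over all 24 (16). P-values were adjusted over all genes by the Benjamini-Hochberg method, with calls under 0.05, and intervals are unadjusted 95% intervals. The steps were tested on simulated data.

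Values in every array were given for up to 3 called members per line and class with the largest change at 24 h, the 2 per class with the largest called difference between the lines, and members called in opposite directions. Of other lists, up to 2 called genes per line were named. The members and lists were chosen with earlier results of these data known. No main fit paired arrays by replicate number, and the block on that number was run only as an alternative. The rule for pairs asked that every correlation of equally numbered arrays' deviations from their group means exceed 0.1. It was met by 3 comparisons of 769-P: 6 h (range 0.11 to 0.36), 24 h (range 0.12 to 0.17), and 24 h less 6 h (range 0.10 to 0.19). The main results of these comparisons are unpaired all the same. Alternatives were quantile normalization, the average of a gene's probe sets, other filters, no trend, 1 fit over both lines, the replicate block and left-out arrays. For genes outside the synthetase lists these alternatives were added after their values were seen.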

Additional observations from a re-analysis of the deposited data

Results flagged for a closer look

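The results given here are those where the change under dasatinib differed between Caki-1 and 769-P by a test of the difference itself (limma interaction, adjusted p under 0.05). Values are the Caki-1 change less the 769-P change on the log2 scale.

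At 6 h the difference of TARS1 was 0.43 (adjusted p = 0.00255), with the lower change in 769-P. At 12 h GARS1 stood at 0.41, TARS1 at 0.56 and YARS1 at 0.31, all with the lower change in 769-P. VARS1 stood at -0.44, WARS1 at -0.52, HARS2 at -0.41, MARS2 at -0.86 and NARS2 at -0.76 at that time, with the lower change in Caki-1. The adjusted p of these 12 h differences ran from 5.95e-05 for GARS1 to 0.034 for WARS1.

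At 24 h the cytosolic genes with the lower change in 769-P were GARS1 (0.51), YARS1 (0.50), TARS1 (0.38), EPRS1 (0.31) and IARS1 (0.27). Those with the lower change in Caki-1 were FARSB (-0.55), VARS1 (-0.43) and HARS1 (-0.30). The mitochondrial genes all had the lower change in Caki-1. They were NARS2 (-1.29), MARS2 (-1.29), WARS2 (-0.73), LARS2 (-0.69), HARS2 (-0.57), YARS2 (-0.55), FARS2 (-0.42) and VARS2 (-0.36). The adjusted p at 24 h ran from 2.1e-07 for NARS2 to 0.0206 for VARS2.

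Of these, MARS2 at 12 h was no longer called without the third replicates (-0.66, adjusted p = 0.212), IARS1 at 24 h without the third replicates (0.22, adjusted p = 0.134), and HARS1 at 24 h without the second (-0.28) or the third (-0.26) or with the mean of its probe sets (-0.23). FARS2 at 24 h stood at an adjusted p of 0.0535 without the third replicates, and VARS2 at 24 h lost its call without the second or the third, after quantile normalization and with the mean of its probe sets (-0.20). At 12 h VARS1 lost its call without the second (-0.22) or the third replicates (-0.48) and with the mean of its probe sets (-0.13), HARS2 without the second (-0.31) or the third (-0.41), and WARS1 and YARS1 without any one of the 3 numbers. TARS1 at 6 h missed the threshold without the second replicates (adjusted p = 0.0542), EPRS1 at 24 h without any one of the 3 numbers, and VARS1 at 24 h without the second (-0.33) or with the mean of its probe sets (-0.14). WARS1 at 12 h was also lost after quantile normalization. With that mean the differences of MARS2 (-0.55), WARS2 (-0.39) and TARS1 (0.22) at 24 h were smaller and still called. In each of these cases the direction was kept.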

How the results depend on the processing

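Over 44 results (counts of called members by class and direction, and class medians), 463 of 543 alternative values stayed within 1.5 times the count or within the spread between replicates, and 1 reversed. A change of sign was not counted as reversed where the main median was smaller than that spread. The mitochondrial median in Caki-1 at 6 h, 0.026 in the main fit, thus ran from -0.005 to 0.039 over left-out arrays. The reversed value was the mitochondrial median in 769-P at 12 h, which moved from 0.088 to -0.011 when the probe sets of each gene were averaged. For single members, 1767 of 1855 alternative values stayed on the same side of the threshold, 58 lost the call and 30 gained it. None changed sign with a call in either fit. Changes of sign where neither value was called were not counted as reversed. The cause of each shift given here was not tested.

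With averaged probe sets, the medians of the cytosolic genes at 12 h were -0.31 in Caki-1 and -0.36 in 769-P, and those of the mitochondrial genes were -0.12 at 12 h and -0.31 at 24 h in Caki-1 and 0.004 at 6 h in 769-P. Counts of rises moved by 1 with that setting: cytosolic genes to 2 at 6 h in Caki-1 and to 1 at 6 h in 769-P, and mitochondrial genes to 1 at 6 h and 0 at 24 h in Caki-1 and to 1 at 12 h in 769-P. The count of differences at 6 h became 2. After quantile normalization the cytosolic medians were -0.38 at 24 h in Caki-1, -0.12 at 6 h in 769-P and -0.48 at 24 h in 769-P, the mitochondrial medians were -0.06 at 12 h and -0.17 at 24 h in Caki-1 and -0.03 at 24 h in 769-P, and 2 mitochondrial genes rose at 24 h in Caki-1. Without a filter on dim genes 1 mitochondrial gene rose at 12 h in 769-P, and without the intensity trend 0 cytosolic genes rose at 6 h in Caki-1.

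With the replicate block, 2 cytosolic genes rose at 24 h in 769-P and 5 mitochondrial genes fell there, and 2 cytosolic genes rose at 6 h in Caki-1. The Caki-1 comparison at 6 h did not meet the rule for pairs (correlations of -0.02 to 0.31). Arrays of unequal number were not correlated for comparison. The block moved no other count beyond 1.5 times.

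Leaving out arrays moved these results. In Caki-1 at 6 h, 0 to 2 cytosolic genes rose and 1 to 3 fell, 0 to 2 mitochondrial genes rose and 1 to 3 fell, and the cytosolic median ran from -0.089 to -0.058. In Caki-1 at 24 h, 0 to 1 mitochondrial genes rose and the cytosolic median ran from -0.48 to -0.42. In 769-P at 6 h, 0 to 2 cytosolic genes rose, the cytosolic median ran from -0.162 to -0.087 and the mitochondrial one from 0.047 to 0.097. In 769-P at 12 h, 0 to 2 mitochondrial genes rose and 2 to 4 fell, and the cytosolic median ran from -0.48 to -0.38. In 769-P at 24 h, 1 to 2 cytosolic genes rose, 2 to 6 mitochondrial genes fell, and the medians ran from -0.55 to -0.47 and from -0.12 to -0.06. The differences called ran from 0 to 1 at 6 h and from 3 to 9 at 12 h.

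With 3 arrays in a group, the median SE of a member's change was 0.07 (cytosolic) and 0.10 (mitochondrial) in Caki-1 and 0.08 and 0.10 in 769-P, which limits what small changes can be called. Probe sets of 1 gene could differ in sign at 24 h, which occurred in 12 cases. Among those with a mean signal above 8 were WARS1 in 769-P (-0.11 against 0.26) and, in Caki-1, EPRS1 (0.013 against -0.12) and WARS2 (-0.05 against 0.02), and of called genes only FARSB in Caki-1 and PARS2 in both lines were concerned, each by a dim probe set.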
